A study of Mus musculus with 16 samples.

Results

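The 6 genes described here encode members of the monocarboxylate transporter (MCT) family and membrane glycoproteins that escort transporters of this family: Slc16a1 (MCT1), Slc16a3 (MCT4), Slc16a6 (MCT7), Slc16a7 (MCT2), Emb (embigin) and Bsg (basigin). They were selected on gene symbol and on their log2 signals in all 8 groups of the arrays, so that the values of these genes are given as a description, without a test. Each was read by 1 transcript cluster (the set of probes that reads 1 gene), which makes 6 of the 22206 annotated clusters on the array. Expression was measured on Clariom S mouse arrays in primary skin fibroblasts grown from tail explants of MPS I mice aged 6 to 8 weeks, a model of mucopolysaccharidosis I, the lysosomal storage disease in which alpha-L-iduronidase is deficient. All groups came from these diseased cells, and no healthy fibroblasts were among the arrays analysed here. The groups were 120 and 60 µM of a 1:1 mixture of genistein and kaempferol, 120 and 60 µM kaempferol (K), 120 and 60 µM genistein (G), 0.1% DMSO and 0.05% DMSO, each with 2 of the 16 arrays, after 24 h of treatment. Both are plant flavonoids, G of the isoflavone and K of the flavonol class, and the 120 µM mixture held 60 µM of each compound, the 60 µM mixture 30 µM of each. The mixtures were compared with 0.1% DMSO and the single compounds with 0.05% DMSO, as in the methods of the study, while the labels give 0.05% DMSO as the solvent of every treatment.

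Lactate, pyruvate and ketone bodies cross the plasma membrane together with a proton through MCT1, MCT2 and MCT4, in the direction set by the gradients of substrate and proton. MCT1 is the widespread isoform, MCT4 is known from cells that export much lactate, and MCT2 takes up substrate at high affinity. These transporters reach the plasma membrane only with a chaperone of the immunoglobulin superfamily, usually basigin for MCT1 and MCT4 and embigin for MCT2. MCT7 is less well known, and in zebrafish its orthologue is needed for the release of ketone bodies from the liver.

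All values are log2 signals, in which 1 unit stands for a 2-fold difference, and the level of one gene cannot be set against that of another, because each has its own probes. Background was read from 5222 negative control probe sets, whose median was 6.47 to 6.83 depending on the array, and a gene whose 2 arrays of a group both failed to exceed that median is called not well above background there. All 12 fibroblast markers were above that median in at least 1 group and 11 on every array. Of the markers of other cell types, Kdr, Lyz2 and Cd14 were above it in at least 1 group, and the melanocyte marker Mlana on all 16 arrays. Those of keratinocytes, Schwann cells, skeletal muscle and adipocytes were at background. The summed signal of the fibroblast markers was 18.8 to 19.2 on the treated arrays and 19.3 on the DMSO arrays; whether this moved any result below was not tested. Arrays of 1 group correlated at 0.9948 to 0.9972 over all clusters, and with 2 arrays a group, each standard error (SE) rests on the spread pooled over the 8 groups. How many of all clusters did not overlap between 2 single groups was not counted, so a lack of overlap between such groups is only a description. The labels call the 2 arrays biological replicates, but do not say whether they came from separate mice.

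Promoter windows of 300 bases, from 250 before to 50 after the start of the gene, were at hand for 3 of the 6 genes (RefSeq, build GRCm38.p6). Those of Emb, which was higher in every treatment, and of Slc16a1, which was lower in 60 µM G and near its control in the other treatments, are shown for comparison. Capitals mark matches on either strand to the E-box CACGTG or the GC box GGGCGG.
Emb, chr13:117220323-117220622, plus strand: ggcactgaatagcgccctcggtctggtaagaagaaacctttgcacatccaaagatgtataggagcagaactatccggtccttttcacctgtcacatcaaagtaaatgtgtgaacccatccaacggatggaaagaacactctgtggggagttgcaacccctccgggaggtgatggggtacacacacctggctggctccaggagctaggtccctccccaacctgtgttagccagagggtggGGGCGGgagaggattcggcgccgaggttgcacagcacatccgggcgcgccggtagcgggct
Slc16a1, chr3:104638414-104638713, plus strand: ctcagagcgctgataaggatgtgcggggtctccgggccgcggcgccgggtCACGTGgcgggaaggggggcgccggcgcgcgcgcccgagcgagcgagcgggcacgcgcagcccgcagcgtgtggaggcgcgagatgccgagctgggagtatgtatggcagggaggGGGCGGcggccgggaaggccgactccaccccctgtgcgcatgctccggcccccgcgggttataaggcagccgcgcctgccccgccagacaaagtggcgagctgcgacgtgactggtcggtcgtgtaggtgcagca
The Emb window held 1 GC box and 0 E-boxes, and the Slc16a1 window 1 of each. Among all 32851 windows of this length, 35.7% held a GC box and 7.15% an E-box. These letters were only counted, and binding to them was not measured.

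The 2 genes that stood out were the chaperone Emb, with a higher signal in all 6 treatments, and the transporter Slc16a6, with a high signal in 120 µM G alone of the 8 groups. Slc16a1 and Bsg were well above background on all 16 arrays, where Bsg varied little and Slc16a1 was lowest in 60 µM G, and Slc16a3 and Slc16a7 were at background throughout. The plot of signals by array shows these patterns.

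**Figure D1:**
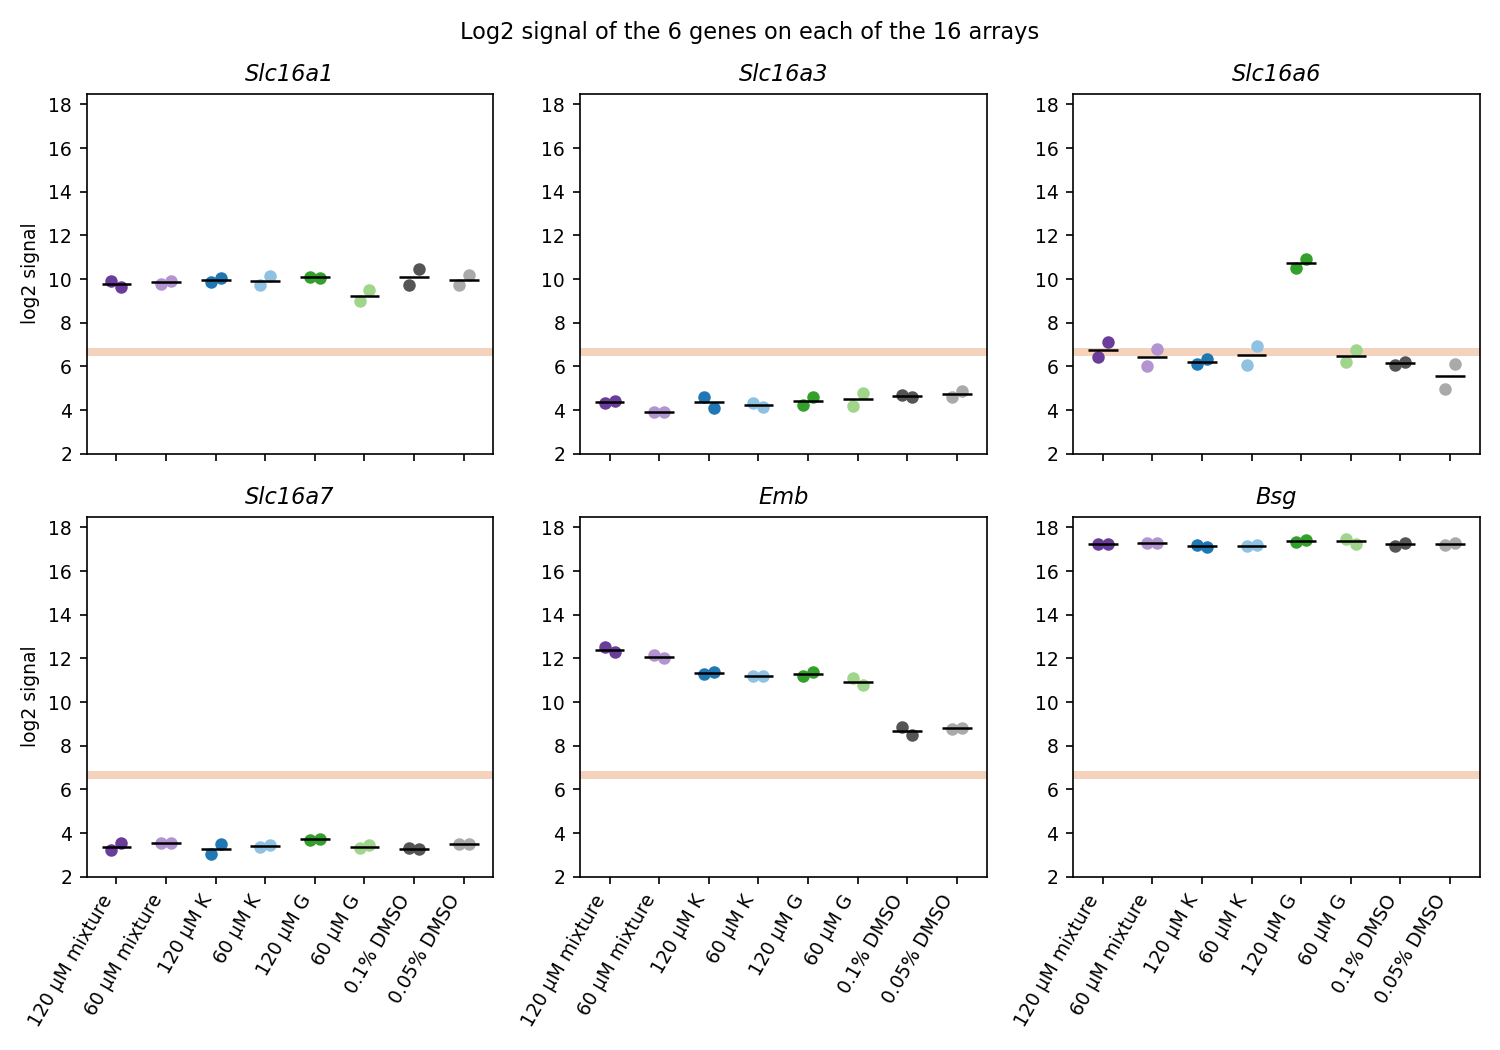
Log2 signal of each gene (y axis) in the 6 treatments and 2 DMSO controls (x axis). Points are arrays, black lines are group means and the shaded band is the range of the negative control median over the 16 arrays, 6.47 to 6.83. Emb lay between 10.77 and 12.50 on treated arrays and between 8.51 and 8.88 on DMSO arrays, while Slc16a6 reached 10.53 and 10.92 in 120 µM G only.

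Embigin, the chaperone best known as the partner of MCT2, had the widest range of group means among the 6 genes after Slc16a6. The Emb signal was 12.50 and 12.29 on the 2 arrays of the 120 µM mixture, and 12.15 and 12.01 on those of the 60 µM mixture. With K it was 11.30 and 11.39 at 120 µM, and 11.20 and 11.20 at 60 µM. With G it was 11.20 and 11.39 at 120 µM, and 11.10 and 10.77 at 60 µM, against 8.88 and 8.51 in 0.1% DMSO and 8.79 and 8.80 in 0.05% DMSO. The 12 treated arrays all lay above the 4 DMSO arrays, without overlap, and the 4 mixture arrays above the 8 arrays of single compounds. Emb was the only one of the 6 genes for which treated and DMSO arrays did not overlap, which 9.69% of all clusters did in one direction or the other.

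Relative to the solvent control, the Emb signal was higher by 3.70 in the 120 µM mixture and by 3.38 in the 60 µM mixture (SE 0.16 for each difference between 2 groups). It was higher by 2.55 and 2.40 with 120 and 60 µM K, and by 2.50 and 2.14 with 120 and 60 µM G. These differences correspond to 13.0-fold and 10.4-fold for the mixtures, 5.84-fold and 5.29-fold for K, and 5.65-fold and 4.40-fold for G. In bulk RNA, a smaller number of cells of one type and less RNA per cell cannot be told apart, which holds for all differences given here. The 0.1% DMSO mean differed from the 0.05% DMSO mean by -0.10, and the arrays of both solvents overlapped.

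The mixtures exceeded the single compounds at the same total concentration. At 120 µM, Emb in the mixture was 2.15-fold the level with G and 2.08-fold the level with K, and at 60 µM it was 2.21-fold and 1.84-fold. The array values of these groups did not overlap in any of the 4 comparisons. In order of group means, Emb was highest in the 120 µM mixture, then in the 60 µM mixture, 120 µM K, 120 µM G, 60 µM K and 60 µM G, and lowest in both DMSO groups; the arrays of 120 µM K, 120 µM G and 60 µM K overlapped from one to the next, as did those of both solvents. By contrast, K and G at 120 µM differed by 0.05 (log2 difference, SE 0.16) with overlapping arrays, and at 60 µM K was higher than G by 0.27. The step to 120 µM, set against 60 µM, was 0.32 for the mixture, 0.14 for K and 0.36 for G. In the 120 µM mixture, where each compound was present at 60 µM, the log2 difference was smaller by 0.84 (SE 0.33) than the differences of 60 µM G and 60 µM K added together, on a scale where the sum corresponds to multiplied fold changes. Over 22 other settings of control, normalization, replicate block and left-out arrays, the Emb difference from DMSO stayed between 3.52 and 3.88 in the 120 µM mixture, and between 1.97 and 2.30 in 60 µM G.

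**Figure D2:**
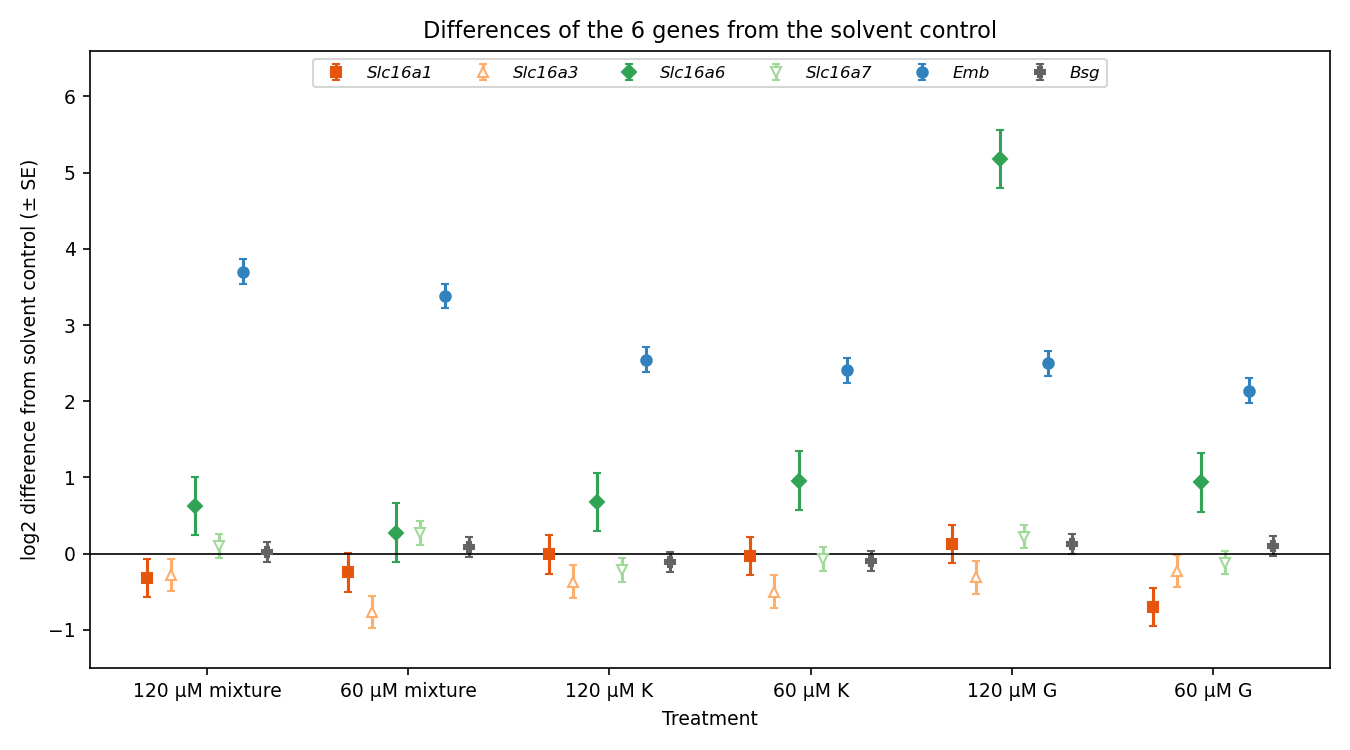
Log2 difference of each gene from its solvent control (y axis, 0.1% DMSO for the mixtures and 0.05% DMSO for K and G) in the 6 treatments (x axis). Bars are ± SE from the fit over 16 arrays with 2 arrays a group, and open symbols mark Slc16a3 and Slc16a7, which were at background in all groups. Emb lies between 2.14 and 3.70 in all treatments, and Slc16a6 at 5.18 in 120 µM G.

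MCT7, encoded by Slc16a6, followed another pattern. Its signal was 10.53 and 10.92 in 120 µM G, and between 4.98 and 7.12 on the other 14 arrays. It was 6.23 and 6.74 in 60 µM G, and 4.98 and 6.12 in 0.05% DMSO, so that the groups of 120 µM G and 60 µM G lay far apart. In K the signal was 6.10 and 6.35 at 120 µM, and 6.07 and 6.94 at 60 µM. In the mixture it was 6.42 and 7.12 at 120 µM, and 6.03 and 6.81 at 60 µM, against 6.08 and 6.21 in 0.1% DMSO. In order of their means, each of these 7 groups overlapped the next, and all lay near the negative control median, which 6 of the 16 arrays exceeded, those of 120 µM G included. Of the 5 treatments other than 120 µM G, the arrays of the 120 µM mixture lay above those of 0.1% DMSO without overlap. Those of 60 µM G likewise lay above those of 0.05% DMSO. Both treated groups were themselves near background. Their negative control medians were 6.83 and 6.70 in the 120 µM mixture and 6.72 and 6.73 in 60 µM G. In 0.1% DMSO these medians were lower, 6.59 and 6.47, so no fold change is given here.

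The log2 difference of Slc16a6 between 120 µM G and 0.05% DMSO was 5.18 (SE 0.38). As the DMSO group was not well above background, the fold change is a bound, at least 18.0-fold higher with 120 µM G, computed from the higher of the gene's own signal and the negative control median on each DMSO array. In 60 µM G and in the 120 µM mixture 1 of the 2 arrays exceeded the negative control median, so that ratios to these groups also depend on background. The 120 µM dose of G was 18.9-fold the 60 µM dose by the signals as measured, and 15.9-fold with each 60 µM array at no less than the negative control median. The 120 µM mixture was 0.0643 of the level with 120 µM G as measured and 0.0741 with that limit, and K at 120 µM was at most 0.0608 of it. The 120 µM mixture held the same 60 µM of G as the 60 µM G group, and their mean signals were 6.77 and 6.48, with overlapping arrays. Between 120 µM K and 60 µM K the difference was -0.28, and between the 120 and 60 µM mixtures 0.34, both less than the SE of 0.38. The 120 µM mixture departed by -1.27 (SE 0.76) from the added differences of both compounds at 60 µM, and by -0.02 when signals below the negative control median were set to it, so that this value rests on signals at background.

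Slc16a6 was also the gene in which array 2 exceeded array 1 in 8 of 8 groups, by 0.13 to 1.14, whereas Emb did so in 4 of 8. Of all clusters, 0.928% were one-sided in this way in all 8 groups. With the replicate number as a block in the fit, the SE of a Slc16a6 difference was 0.21, against 0.38 without it. The difference between 120 µM G and 0.05% DMSO was 5.75 without 0.05% DMSO replicate 2, 4.60 without 0.05% DMSO replicate 1 and 4.58 with 0.1% DMSO as the control.

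MCT1, encoded by Slc16a1, was well above background on all 16 arrays, with signals of 8.99 to 10.48. It was 9.93 and 9.62 in the 120 µM mixture, and 9.78 and 9.92 in the 60 µM mixture, against 9.72 and 10.48 in 0.1% DMSO. With K it was 9.85 and 10.03 at 120 µM, and 9.72 and 10.12 at 60 µM. With G it was 10.09 and 10.06 at 120 µM, and 8.99 and 9.50 at 60 µM, against 9.72 and 10.19 in 0.05% DMSO. Its group means spanned 0.85, and 78.2% of all clusters spanned less. The 60 µM G arrays were the lowest and overlapped no other group, and the arrays of the other 7 groups overlapped with those of their neighbours in the order of levels. In 60 µM G the signal was lower than in 0.05% DMSO by a log2 difference of -0.70 (SE 0.25), or 0.614-fold, and in the other 5 treatments the difference lay between -0.32 and 0.12. The 60 µM G difference was -0.45 without 60 µM G replicate 1 and -0.96 without 60 µM G replicate 2. The 120 µM dose of G was 1.78-fold the 60 µM dose, and K at 60 µM was 1.59-fold G at 60 µM.

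Basigin, the usual chaperone of MCT1 and MCT4, had signals of 17.10 to 17.46 and was among the most even genes of the array. Its group means spanned 0.23, and 2.59% of all clusters spanned less. The means were 17.24 in the 120 µM mixture, 17.30 in the 60 µM mixture, 17.15 in 120 µM K, 17.16 in 60 µM K, 17.38 in 120 µM G and 17.36 in 60 µM G, against 17.22 in 0.1% DMSO and 17.26 in 0.05% DMSO. Differences from the solvent control lay between -0.11 and 0.12 (SE 0.13), and K was lower than G by 0.23 at 120 µM and by 0.20 at 60 µM, without overlap of the arrays. Neither of these differences is among the calls listed below. The highest signal on any array of the series was 18.4, so that Bsg lay near the top of the scale.

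The 2 remaining transporters were not well above background in any of the 8 groups, and their differences carry no fold change. Slc16a3 (MCT4) had signals of 3.89 to 4.86, and was lowest in the 60 µM mixture, with a mean of 3.90 there, against 4.67 in 0.1% DMSO. Slc16a7 (MCT2), the transporter that embigin escorts, had signals of 3.07 to 3.73, with group means of 3.27 in 120 µM K to 3.71 in 120 µM G. For both genes, 0 of the 16 arrays exceeded the negative control median. On this array, neither gene can be followed through the treatments.

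The fit over all 22206 clusters, with Benjamini-Hochberg adjustment in limma, gave calls at an adjusted p under 0.05, and since these signals were part of how the genes were selected, the calls are listed only for the record. Of the 6 genes, 1 was called in the 120 µM mixture (Emb, with 19.6% of all clusters called) and 2 in the 60 µM mixture (Emb, and Slc16a3 below background, with 17.8%). Emb was the 1 gene called with 120 µM K (17.0% of all clusters), with 60 µM K (10.1%) and with 60 µM G (8.32%), and with 120 µM G the 2 were Emb and Slc16a6 (15.7%). In the step of G to 120 µM, set against 60 µM, 1 gene was called (Slc16a6, 3.54% of clusters), in that of K 0 (0.27%) and in that of the mixture 0 (0%). Between K and G, 1 was called at 120 µM (Slc16a6, 9.78%) and 0 at 60 µM (8.17%). The mixture differed from G in 2 genes at 120 µM (Emb and Slc16a6, 7.33%) and in 1 at 60 µM (Emb, 7.35%), and from K in 1 at 120 µM (Emb, 0.684%) and in 0 at 60 µM (0.0901%).

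The genes that work beside the transporters were followed in 5 lists of 50 genes in all. A list of 4 genes held sodium-coupled carriers, a further chaperone and the lactate receptor, and 3 of these 4 were at background in all 8 groups. The other lists held 10 other members of the SLC16 family, 18 lactate and pyruvate enzymes and carriers, 8 ketone body enzymes, and 10 acid-base transporters and carbonic anhydrases. The test called 18 of the 50 in the 120 µM mixture, 13 in the 60 µM mixture, 16 with 120 µM K, 13 with 60 µM K, 13 with 120 µM G and 6 with 60 µM G. In the same order, these were shares of 36%, 26%, 32%, 26%, 26% and 12%. Of all clusters, 19.6%, 17.8%, 17.0%, 10.1%, 15.7% and 8.32% were called. Without the called genes that were not well above background in either group, 9 rose and 7 fell in the 120 µM mixture, and 5 rose and 5 fell in the 60 µM mixture. With 120 µM K 6 rose and 7 fell, with 60 µM K 5 rose and 8 fell, with 120 µM G 6 rose and 5 fell, and with 60 µM G 3 rose and 3 fell. The median log2 difference of the 50 genes lay between -0.02 and 0.07, against -0.04 and 0.01 over all clusters. The number of calls was 11 instead of 18 in the 120 µM mixture without 120 µM mixture replicate 1. Without 0.05% DMSO replicate 2 it was 10 instead of 16 with 120 µM K and 7 instead of 13 with 60 µM K, and for 60 µM K it was 8 without either array of 60 µM K.

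Among the other SLC16 transporters, 7 of 10 were not well above background in all 8 groups. Slc16a9 (MCT9), a carnitine transporter, rose in 5 treatments and its difference in 60 µM G was 0.46 (adjusted p = 0.12). Its signal was 9.52 and 9.51 in the 120 µM mixture and 9.54 and 9.89 in the 60 µM mixture, against 8.30 and 8.78 in 0.1% DMSO. Its calls in 120 µM K (adjusted p = 0.013) and 120 µM G (adjusted p = 0.0097) were lost with 0.1% DMSO as the control (adjusted p = 0.64 and 0.51) and without 0.05% DMSO replicate 2, the first also without either array of 120 µM K and the second without 120 µM G replicate 1. It rose 1.97-fold in the 120 µM mixture (adjusted p = 0.0012), 2.25-fold in the 60 µM mixture (adjusted p = 0.00039) and 2.57-fold in 60 µM K (adjusted p = 0.00017). Neuroplastin (Nptn), the third chaperone of the family, differed from its control by -0.23 to 0.30 on the log2 scale in the 6 treatments, and none of these differences passed the test. Between treatments, Nptn was called lower in 60 µM K (mean 15.53) and in the 60 µM mixture (15.63) than in 60 µM G (16.06). Over the 10 transporters the median log2 difference lay between -0.12 and 0.10, and 0 or 1 rose and 0 or 1 fell in a treatment, leaving out 4 further calls of genes at background in both groups (Slc16a8 in the 120 µM mixture, Slc16a5 in the 60 µM mixture, Slc16a13 in 120 µM K and Slc16a10 in 120 µM G). With these 4, the called share of the list was 10% to 30% in a treatment, against 8.32% to 19.6% of all clusters.

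Lactate dehydrogenase converts pyruvate and lactate into each other. Its 2 subunits moved in opposite directions in all 6 treatments. Ldha, whose product favours the reduction of pyruvate to lactate, had signals of 12.97 to 13.73 on the 12 treated arrays and 14.57 to 14.96 on the 4 DMSO arrays, without overlap. Ldhb, which favours the oxidation of lactate, had 9.28 to 10.32 on the treated arrays and 7.85 to 8.25 on the DMSO arrays, again without overlap. Ldha fell to 0.298-fold in the 120 µM mixture (adjusted p = 1.1e-05), to 0.320-fold in 120 µM K (adjusted p = 1.6e-05) and to 0.383-fold in 120 µM G (adjusted p = 8.2e-05). Ldhb rose 4.25-fold in the 120 µM mixture (adjusted p = 9.6e-07), 3.35-fold in 120 µM K (adjusted p = 3.4e-06) and 3.46-fold in 120 µM G (adjusted p = 3.7e-06).

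At the branch point of pyruvate, Pdk4, the kinase that inhibits pyruvate dehydrogenase, rose in all 6 treatments, with signals of 10.09 to 11.46 on treated arrays and 8.98 to 9.18 on DMSO arrays. It rose 4.38-fold in the 120 µM mixture (adjusted p = 8e-07), 4.58-fold in 120 µM K (adjusted p = 4.8e-07) and 2.25-fold in 120 µM G (adjusted p = 0.00012). Pcx, pyruvate carboxylase, which turns pyruvate into oxaloacetate, had 8.28 to 9.82 on treated arrays and 6.97 to 7.37 on DMSO arrays. It rose 5.35-fold in the 120 µM mixture (adjusted p = 6.4e-06), 3.93-fold in 120 µM K (adjusted p = 3.4e-05) and 3.56-fold in 120 µM G (adjusted p = 7e-05). Of the 18 genes in this list, Ldha, Ldhb, Pdk4 and Pcx were the 4 that passed in all 6 treatments, and their calls were kept under every alternative setting. Over the list, 3 to 5 genes rose and 1 or 2 fell in a treatment, not counting Pdp2 in 120 µM K, which was at background, with a median log2 difference of 0.07 to 0.21. With Pdp2, the called share of the list was 22.2% to 38.9% in a treatment, against 8.32% to 19.6% of all clusters.

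**Figure D3:**
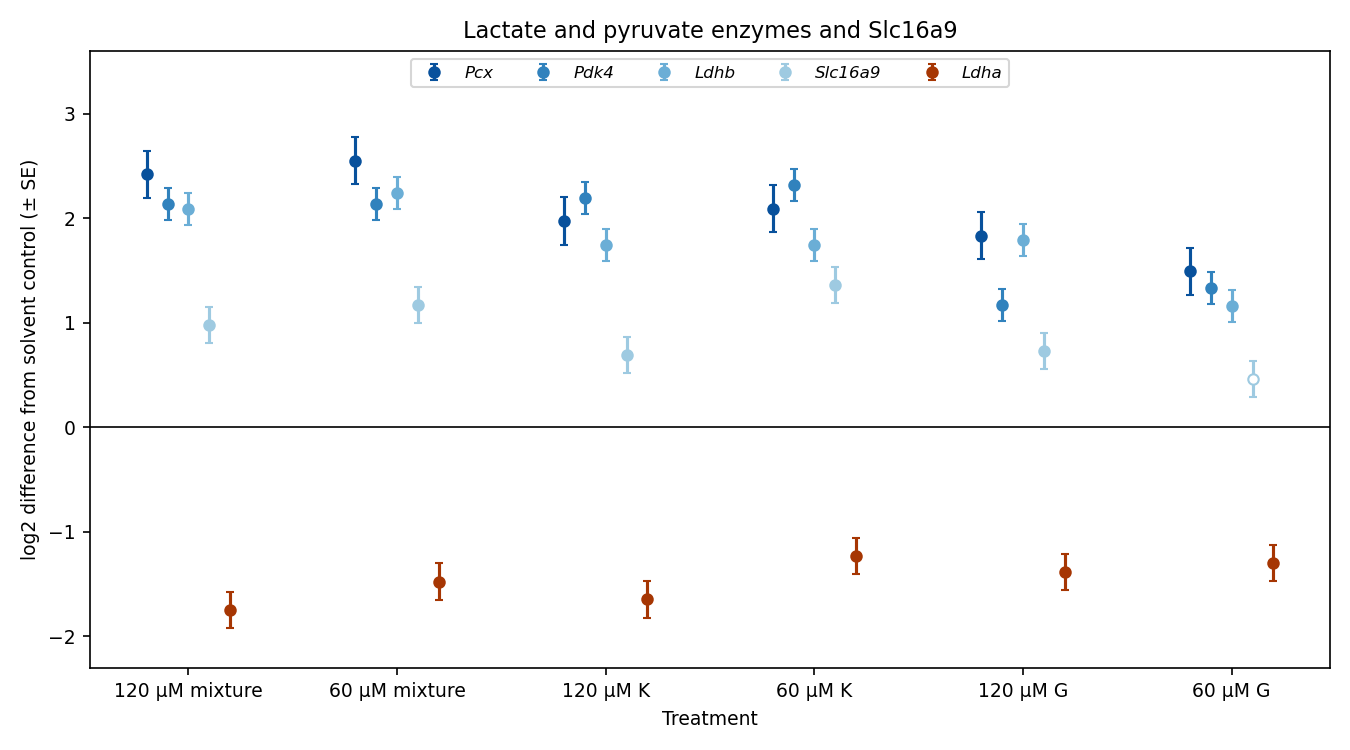
Log2 difference from the solvent control (y axis) of 5 genes of the lists in the 6 treatments (x axis), with ± SE from the fit over 16 arrays. Filled symbols passed the test at an adjusted p under 0.05 and open symbols did not. Pcx, Pdk4 and Ldhb lie above 1 and Ldha below -1 in every treatment.

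Ketone bodies are substrates of the same transporters. Oxct1, the enzyme that commits acetoacetate to use in mitochondria, fell in 5 treatments, to 0.573-fold in the 120 µM mixture (adjusted p = 0.00037) and 0.565-fold in 120 µM K (adjusted p = 0.00028), and was 1.04-fold in 60 µM G. Its calls in 120 µM G (adjusted p = 0.0088) and 60 µM K (adjusted p = 0.013) were lost without 0.05% DMSO replicate 1, that in 60 µM K also without 0.05% DMSO replicate 2 or either array of 60 µM K, and that in the 60 µM mixture (adjusted p = 0.0094) without 0.1% DMSO replicate 1, without 60 µM mixture replicate 1 and with 0.05% DMSO as the control. Bdh1, which interconverts acetoacetate and beta-hydroxybutyrate, rose in the 120 µM mixture (at least 1.45-fold, adjusted p = 0.0074), in 120 µM K (at least 1.49-fold, adjusted p = 0.00037) and in 60 µM K (at least 1.49-fold, adjusted p = 0.00071). Its call in the 120 µM mixture was lost without 120 µM mixture replicate 2 (adjusted p = 0.061). Of the 8 ketone body genes, 2 were at background in all groups, and the median log2 difference of the list lay between -0.21 and 0.13. Acss2, which makes acetyl-CoA from acetate, rose in the mixtures, 1.85-fold at 120 µM (adjusted p = 0.0068) and 1.78-fold at 60 µM (adjusted p = 0.011), but with 0.05% DMSO as the control of the mixtures its adjusted p was 0.17 and 0.27, and both calls were lost without 0.1% DMSO replicate 2 and without replicate 1 of the treated group.

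In the acid-base list the median log2 difference lay between -0.53 and -0.17 in the 6 treatments, and 4 of the 10 genes were at background in all groups. In the 120 µM mixture 1 gene rose and 3 fell, and in the 60 µM mixture 0 rose and 2 fell. With 120 µM K 1 rose and 4 fell, with 60 µM K 0 rose and 4 fell, with 120 µM G 1 rose and 2 fell, and with 60 µM G 0 rose and 1 fell. Slc4a4, called lower with 120 µM K and 120 µM G, was at background in both groups and is not counted. The called shares of this list, with Slc4a4, were 40% and 20% in the 120 and 60 µM mixtures, 60% and 40% in 120 and 60 µM K, and 40% and 10% in 120 and 60 µM G, against the 19.6%, 17.8%, 17.0%, 10.1%, 15.7% and 8.32% of all clusters. Slc4a7, a sodium bicarbonate cotransporter, rose at 120 µM of the mixture (1.66-fold, adjusted p = 0.0082), of K (1.76-fold, adjusted p = 0.0044) and of G (1.91-fold, adjusted p = 0.0018), where the call in the mixture was lost without 120 µM mixture replicate 1 or 0.1% DMSO replicate 1, and that in K without 120 µM K replicate 2. Car5b, a mitochondrial carbonic anhydrase, fell in all 6 treatments to background, at most to 0.823-fold in the 120 µM mixture and 0.543-fold in 120 µM K. Its call in 60 µM G (adjusted p = 0.0068) was lost with 0.1% DMSO as the control (adjusted p = 0.11), without 60 µM G replicate 1 and without 0.05% DMSO replicate 1.

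K and G, which differ in the position of the phenyl ring on the chromone and in a hydroxyl group that K has on the carbon next to it, could be compared at matched doses. At 120 µM the called share of the 50 genes was 10%, near the 9.78% of all clusters. At 60 µM it was 16%, against 8.17% of all clusters. Pdk4 was higher with K at both, 2.04-fold at 120 µM (adjusted p = 0.00071) and 1.98-fold at 60 µM (adjusted p = 0.0015). Bdh1 was likewise higher with K at 120 µM (at least 1.33-fold, adjusted p = 0.007) and at 60 µM (at least 1.32-fold, adjusted p = 0.0066), and Car13, a cytosolic carbonic anhydrase, was lower with K at 120 µM (0.537-fold, adjusted p = 0.0057) and at 60 µM (0.576-fold, adjusted p = 0.016). The Bdh1 calls were lost without 120 µM G replicate 1 or 120 µM K replicate 2 at 120 µM and without 60 µM K replicate 1 at 60 µM, and those of Car13 without 120 µM K replicate 1 at 120 µM and without 60 µM G replicate 1 or either array of 60 µM K at 60 µM. For Ldha the log2 difference of K from G was -0.26 at 120 µM (95% interval -0.63 to 0.11) and 0.07 at 60 µM (95% interval -0.31 to 0.44), and for Pcx 0.14 (95% interval -0.34 to 0.63) and 0.60 (95% interval 0.12 to 1.09, adjusted p = 0.12). In all, 5 of the 50 genes differed between K and G at 120 µM, 1 of them at background in both groups, or 3 without 120 µM G replicate 1 and without 120 µM K replicate 2. At 60 µM 8 differed, or 3 without either array of 60 µM K and 5 without 60 µM G replicate 2.

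Between the mixture and G, 6 list genes differed at 120 µM, all higher in the mixture, and 9 at 60 µM, of which 1 at each dose was at background in both groups. The called shares were 12% at 120 µM and 18% at 60 µM, against 7.33% and 7.35% of all clusters. Between the mixture and K they were 2% and 0%, against 0.684% and 0.0901%. Pcx was 2.19-fold higher in the 60 µM mixture than in 60 µM G (adjusted p = 0.0092), a call that was lost without either array of the 60 µM mixture or without 60 µM G replicate 2. Slc16a9 was 1.73-fold higher in the 120 µM mixture than in 120 µM G (adjusted p = 0.011) and 2.39-fold higher in the 60 µM mixture than in 60 µM G (adjusted p = 0.00079), where the first call was lost without 120 µM G replicate 2 or either array of the 120 µM mixture. It was also the 1 list gene that differed between the mixture and K at 120 µM (1.78-fold, adjusted p = 0.045, lost in 14 of 22 alternative settings), and 0 did at 60 µM. Between the solvents, Slc16a9 was higher in 0.1% than in 0.05% DMSO by a log2 difference of 0.54, without overlap of the arrays (adjusted p = 0.35). Against its own solvent, the Slc16a9 difference was 0.98 in the 120 µM mixture, 0.69 in 120 µM K and 0.73 in 120 µM G. At 60 µM it was 1.17 in the mixture, 1.36 with K and 0.46 with G. Whether the solvent added to the differences between the mixture and the single compounds was not tested. The count at 120 µM against G was 2, 2, 1 and 2 when 120 µM G replicate 1, 120 µM G replicate 2, 120 µM mixture replicate 1 or 120 µM mixture replicate 2 was left out, and at 60 µM it was 3 without 60 µM G replicate 2 and 2 without either array of the mixture.

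The genes whose pattern over the 16 arrays was most like those of Emb and Slc16a6 were sought among 2817 clusters with 1 gene symbol, group means that spanned at least 1 log2 unit and a highest mean above the negative control median. These correlations share the arrays and the treated groups, and are given as a description. Among the genes most like Emb were Aox1, an aldehyde oxidase (Pearson r = 0.985), Pcx (0.975), Sort1, the sorting receptor sortilin (0.975) and Ugt1a2, a glucuronosyltransferase (0.973). Ugt1a2 belongs to a family whose members share exons, and its signal may hold those of its relatives. Most opposed to Emb were Plp2 (-0.971), Stk24 (-0.968) and AI607873 (-0.968). Aox1 had mean signals of 12.19 in the 120 µM mixture, 11.71 in 120 µM K and 11.33 in 120 µM G, against 9.52 in 0.1% DMSO and 9.48 in 0.05% DMSO.

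Most like Slc16a6 were the carboxylesterases Ces2g (0.931) and Ces2e (0.902), Junb, a subunit of the AP-1 transcription factor (0.911), Lpar6, a lysophosphatidic acid receptor (0.907), and Cdkn2aip (0.883). Ces2g and Ces2e belong to 1 gene family and may share probes, which was not tested. Outside 120 µM G, Slc16a6 lay near the negative control median, so these correlations rest largely on the 2 arrays of 120 µM G. The signals of Ces2g and Ces2e were below that median on every array of K, of the 60 µM mixture and of both solvents. Most opposed were Cc2d2a, a gene of the ciliary base (-0.929), Birc5, or survivin (-0.919), and Kif11, a mitotic kinesin (-0.896). Ces2g had signals of 9.34 and 10.09 in 120 µM G, 7.08 and 6.65 in 60 µM G, and 5.55 and 5.23 in 0.05% DMSO, and thus stood highest in the group in which Slc16a6 did. Among the 6 genes, Emb and Slc16a6 correlated at 0.30 over the 16 arrays, Emb and Bsg at 0.10 and Bsg and Slc16a6 at 0.49. The strongest correlations of either sign were -0.66 for Emb and Slc16a3 and 0.64 for Slc16a6 and Slc16a7, where Slc16a3 and Slc16a7 were at background.

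**Figure D4:**
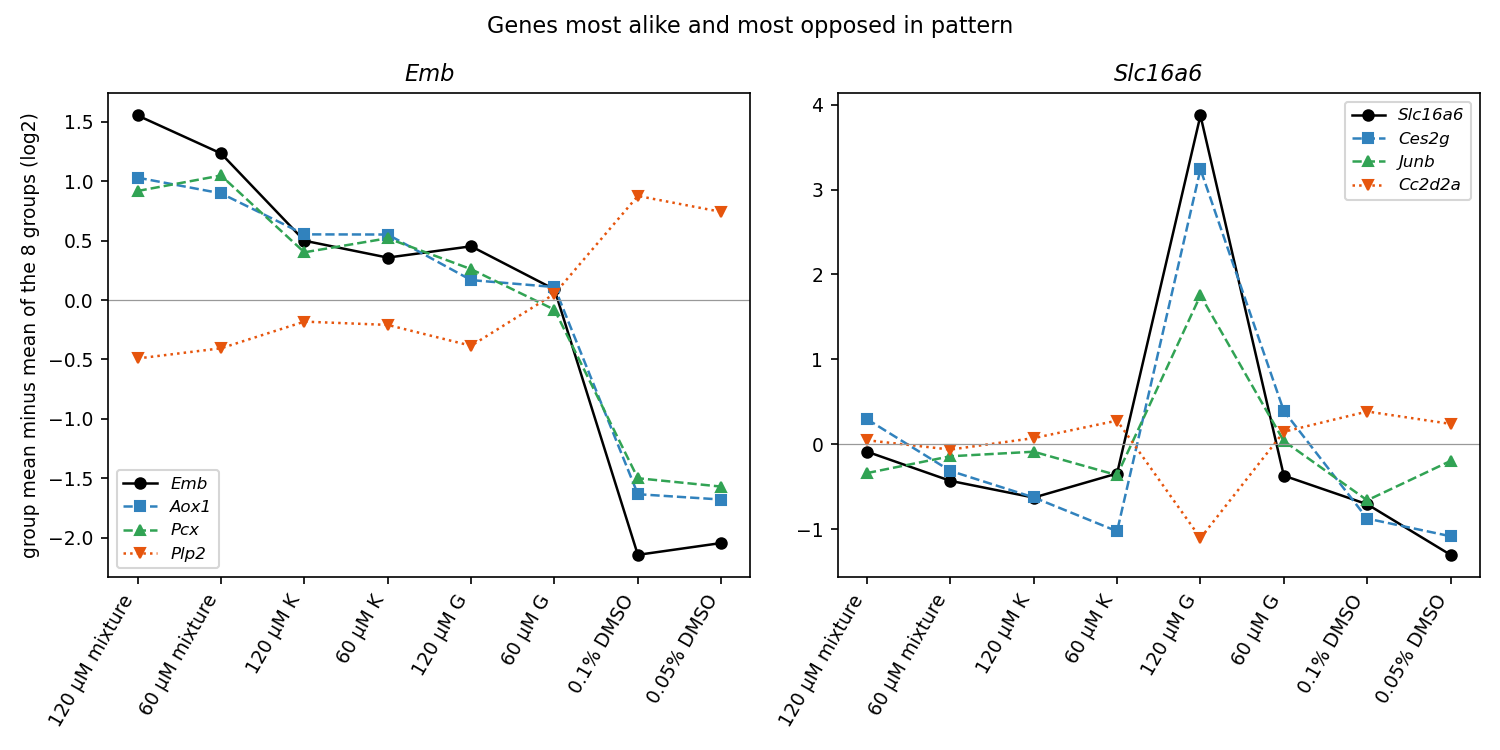
Group mean of the log2 signal minus the mean of the 8 groups (y axis) in each group (x axis), for Emb with Aox1, Pcx and Plp2 and for Slc16a6 with Ces2g, Junb and Cc2d2a; lines only join the values of 1 gene. Aox1 and Pcx are lowest in both DMSO groups as Emb is, and Ces2g and Junb are highest in 120 µM G as Slc16a6 is.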

How the data were processed

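Total RNA of MPS I tail fibroblasts was hybridised to 16 Clariom S mouse arrays, and the log2 signals used here were deposited as the authors had computed them, with Affymetrix Expression Console, Transcriptome Analysis Console and RMA (sst-rma in the column names). Neither a version nor a genome build is given in the sources used here. The study names 3 biological replicates, and 2 arrays per group were analysed. A mean per group was fitted to all 16 arrays at once with limma (version 3.58.1, R 4.3.3), with Benjamini-Hochberg adjustment over 22206 clusters, 8 residual and 5.81 prior degrees of freedom; the script was tested on simulated data. The members and gene lists were chosen with earlier results of these data known. The text names all members, the 5 most alike and 3 most opposed genes, and, of up to 3 list genes with the largest called change in each direction of a comparison, those called most often, except 3 genes that are not reported here; Slc4a7 and Nptn lie outside that rule and were named with their values known. The background limit was set after the values were seen, and a fold change against a group under it is a bound, taking per array the higher of that limit and the gene's own signal. Replicate numbers correlated at -0.136 to 0.142 between groups, so they were not taken as pairs. The number of arrays limits the precision (median SE 0.19). Other controls, normalizations, filters, priors and criteria were tried, and arrays left out.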

Additional observations from a re-analysis of the deposited data

How the results depend on the processing

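The 4 transporters and 2 chaperones gave 2028 differences under alternative settings, of which 1900 moved by less than 1 SD of an array, 127 moved by more and 1 reversed: the Slc16a3 difference between the 60 µM mixture and 0.1% DMSO was 0.15 with signals set to at least the negative control median, where both groups are at background. The calls of the list genes that met the naming rule or were named were recomputed 2005 times, of which 1844 kept the call and 161 lost it, with no change of direction. The number of the 50 list genes that passed in G at 120 against 60 µM (2) was 6 with clusters above the negative control median only, 5 with a trended and robust prior, 0 with only the compared groups in the fit and 11 by the fold criterion of 1.3 and 0.7 without a test. For K at 120 against 60 µM (0) it was 1 with that filter, 1 with that prior and 6 by the fold criterion. The fold criterion gave 13 in 60 µM G (6 by the test), 6 for the mixture at 120 against 60 µM (0), 16 for the 60 µM mixture against G (9), 6 against K (0) and 5 for the 120 µM mixture against K (1). With only the compared groups, the counts of K against G were 3 at 120 µM and 4 at 60 µM, that of the 60 µM mixture against G was 4 and that of the 120 µM mixture against K was 0, and the last was 0 also with quantile normalization. With the trended prior, the 60 µM mixture differed from G in 14. Leaving out each array in turn gave 11 to 19 in the 120 µM mixture, 10 to 17 in 120 µM K, 7 to 13 in 60 µM K, 0 to 2 for the step of G, 3 to 5 for K against G at 120 µM and 3 to 7 at 60 µM, 1 to 7 for the mixture against G at 120 µM and 2 to 9 at 60 µM, and 0 to 1 for the 120 µM mixture against K; the cause was not tested, beyond the smaller number of arrays or genes. Between 60 µM G and its control the range was 4 to 6, in 120 µM G and in the 60 µM mixture 10 to 13. With the replicate block, no count of list genes moved by over 1.5 times, and 3759 instead of 3770 clusters passed in 120 µM K; every sample's number carried no pairing in the labels. No member had a second cluster to try. Signals near background limit Slc16a3, Slc16a6 and Slc16a7.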
